A study of Homo sapiens with 4 samples.

Results

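The genes described here encode the translation initiation factors (EIF) and elongation factors (EEF), the proteins that bring messenger RNA, initiator tRNA and ribosome together and then move the ribosome along the coding sequence. They were chosen by symbol alone, as the protein-coding rows whose symbol starts with EIF or EEF followed by a number, without the EIF2AK kinases, the EEF kinases and methyltransferases, and pseudogenes. This gave 56 of the 28729 genes in the table. Of these, 52 were among the 12645 genes with a mean FPKM (fragments mapped to a gene, divided by its exon length and by the library size) of at least 1, which were tested. EEF1G and EIF4E1B were not analysed here.

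The cells were TU-177, a laryngeal squamous cell carcinoma line, transduced with a lentivirus carrying either an shRNA against SKA3 (SKA3-KD) or a negative control (NC) and harvested as puromycin-resistant cells. SKA3 is a subunit of the complex that ties kinetochores to spindle microtubules. For stable SKA3 knockdown lines the study describes a guide RNA with Cas9 and a donor plasmid. Its methods also describe lentiviral shRNA against a specific gene, selected with puromycin. The reagent given here is that of the sample labels. By those labels both groups carried a lentivirus and passed the same selection, and each group had 2 libraries of total RNA. The comparison of SKA3-KD with NC asked which transcripts changed when SKA3 was lowered. The labels do not say whether the libraries of a group came from separate cultures, so the p-values measure the spread between these libraries.

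Initiation starts when eIF2 carries initiator tRNA to the small ribosomal subunit, together with eIF1, eIF1A, eIF3 and eIF5. The eIF4 factors bind the cap of the messenger RNA, unwind its leader and dock it on eIF3, and the eIF4E-binding proteins (4E-BPs) block that step when they are not phosphorylated by mTOR. After start codon recognition, eEF1A delivers each aminoacyl-tRNA, eEF2 translocates the ribosome and eIF5A relieves stalled peptide bond formation. Many of these messenger RNAs belong to the TOP class, whose transcripts begin with a C and a run of pyrimidines, and whose translation and stability respond to mTOR and LARP1. All values below are transcript levels, and none of them measures protein or translation.

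The FPKM values were scaled to library sizes of 11966130 and 9015056 fragments for NC, and 10177854 and 11793604 for SKA3-KD. SKA3 itself had 9.4 and 9.64 FPKM in NC and 3.77 and 4.12 in SKA3-KD (log2 fold change −1.09 ± 0.07 SE, limma adjusted p = 0.00806), so the libraries matched their labels. Of 8 squamous epithelial markers, 3 reached a mean of 1 FPKM (SFN, KRT17 and EPCAM), whereas KRT5, KRT14, KRT6A, TP63 and CDH1 stayed at or below 0.58 FPKM in every library. The 3 leukocyte and 2 endothelial markers in the table summed to under 0.1 FPKM per list in each library. The 5 fibroblast markers summed to 14.6 and 15.0 FPKM in NC and 8.39 and 9.2 in SKA3-KD. The difference in this sum lay in DCN, at 8.395 and 8.357 FPKM in NC and 2.48 and 2.35 in SKA3-KD. The other 4 summed to 6.19 and 6.66 FPKM in NC and 5.91 and 6.85 in SKA3-KD, which overlap. Within that sum COL1A1 was lower in both SKA3-KD libraries (3.217 and 3.988 FPKM in NC, 2.712 and 2.66 in SKA3-KD). PDGFRB was higher in both (2.88 and 2.456 FPKM in NC, 3.194 and 4.134 in SKA3-KD). LUM was lower, but at or below 0.221 FPKM. KRT17 was lower too, at 45.6 and 49.1 FPKM in NC and 29.4 and 35.7 in SKA3-KD, while SFN and EPCAM overlapped. Among all genes tested, 29.2% lay lower in this way and 32.3% higher. The part of these marker differences in the results below was not tested.

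Most translation factor transcripts differed little between SKA3-KD and NC, and the few that passed the test differed from their mean NC level by between −33.6% and 22.8%. Of the 52 tested, 6 were lower in SKA3-KD past an adjusted p of 0.05 (EIF4EBP2, EIF1AX, EIF4B, EIF3M, EEF1A1 and EIF3L), or 11.5%, where 6.11% of all genes tested were lower. EIF4G1, the scaffold of the cap-binding complex, was the 1 member higher, or 1.92%, where 6.16% of all genes were higher. The log2 fold changes of the 52 ran from −0.55 to 0.29 around a middle value of 0.03, beside 0.01 over all genes tested. In absolute size 44.2% of the members stayed under 0.1 on the log2 scale, against 31.5% of all genes, and the members were more highly expressed, with a median of 39.5 FPKM against 6.43. The groups did not overlap in 30 members: 12 were lower in both SKA3-KD libraries, or 23.1%, where 29.2% of all genes were, and 18 were higher, or 34.6%, where 32.3% were. As a whole the 56 genes took 1.82% and 1.87% of the summed FPKM in NC and 1.81% and 1.85% in SKA3-KD, which overlap.

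**Figure D1:**
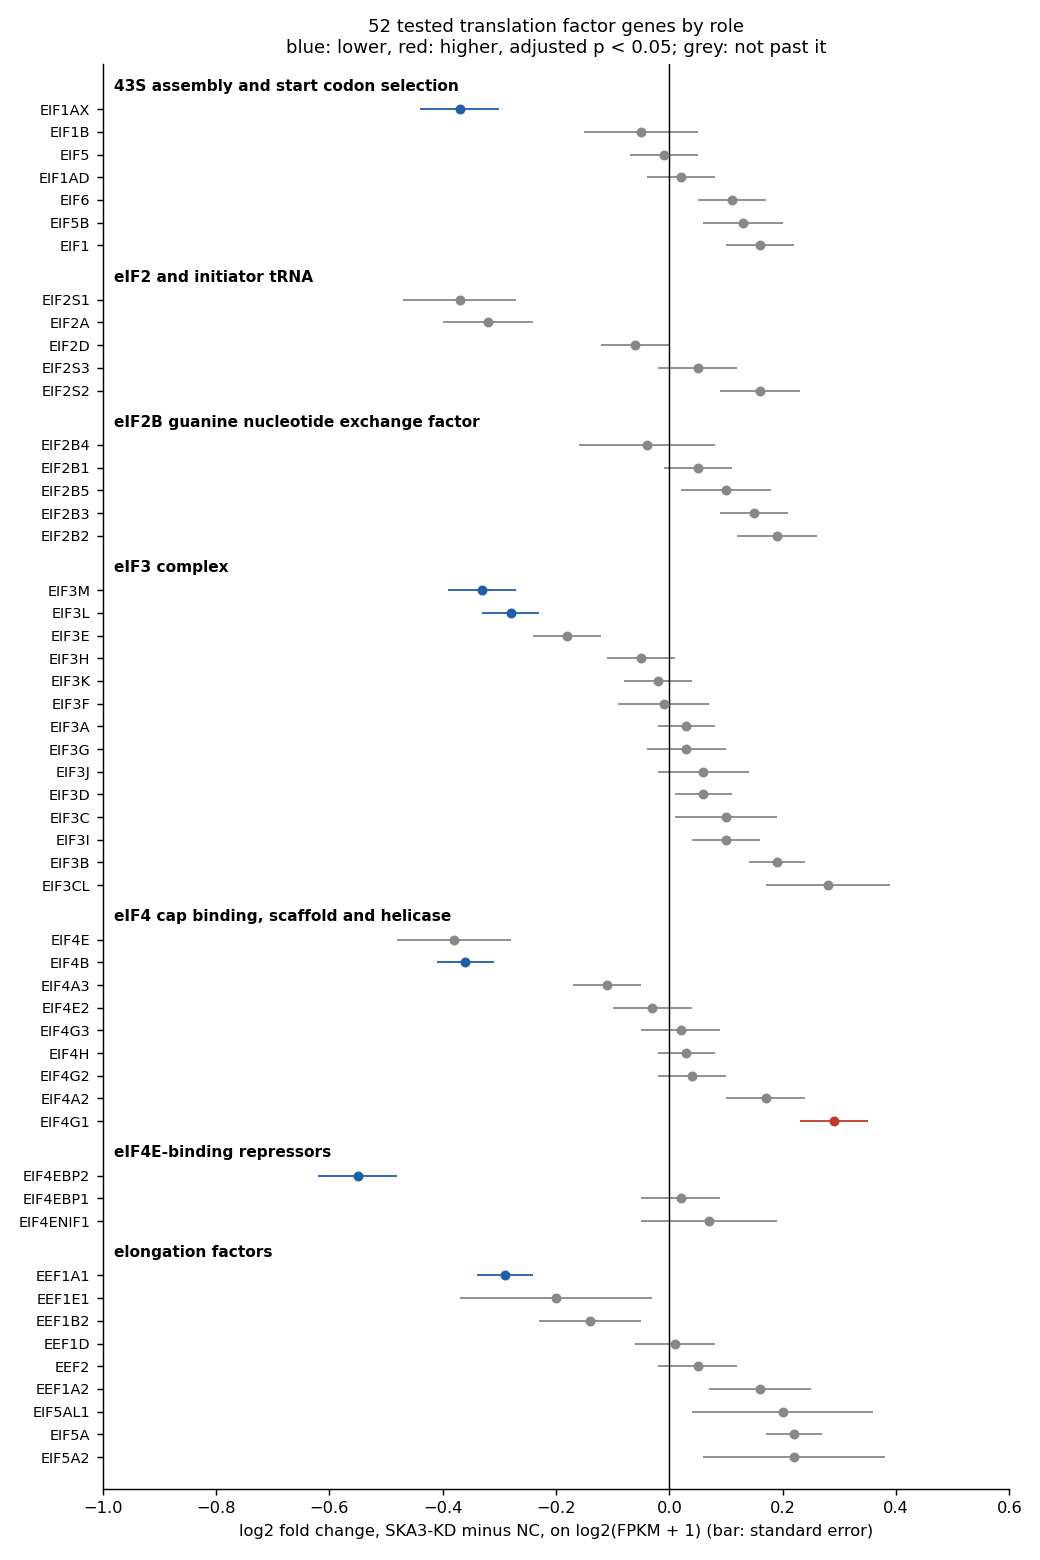
Log2 fold change of SKA3-KD against NC on log2(FPKM + 1) for the 52 tested translation factor genes, ordered within role, with bars for the standard error from limma over 2 libraries per group. The 6 lower genes (blue) are spread over 5 of the 7 roles, and EIF4G1 (red) is the only one higher past an adjusted p of 0.05. Of the 52 points, 38 lie within 0.2 of zero, or 73.1%, where 57.6% of all genes tested do.

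The 7 calls rest on 2 libraries per group. Leaving out any 1 of the 4 libraries kept all 7 directions but left no member past the threshold (adjusted p between 0.0673 and 0.176 for the 7), and without a mean-variance trend in limma only EIF4EBP2 remained past it, while without the filter on FPKM none did (9 lower and 6 higher at an unadjusted p under 0.05). When the fold changes were tested on whole reads recovered from the FPKM values with limma voom, all 7 were past the threshold, as were EIF4E, EIF2S1, EIF2A and EIF3E among the lower genes and EIF3B and EIF5A among the higher. That made 10 lower (19.2%, against 12.3% of all genes) and 3 higher (5.77%, against 13.8%). At an unadjusted p under 0.05 in limma, 10 of the 52 members were lower and 6 higher. Among all 12645 genes tested, 1912 were lower and 2046 higher at that level. The unadjusted counts given below are to be read beside these.

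The clearest change among the eIF4 factors and the repressors that bind eIF4E was in EIF4EBP2 (chr10:70404379-70428618, plus strand, GRCh38). EIF4EBP2 is a 4E-BP that holds eIF4E away from eIF4G. It had 16.6 and 16.9 FPKM in NC and 11.7 and 10.6 in SKA3-KD, so both SKA3-KD libraries lay well below both NC libraries. The difference was the largest in size among the 52 (log2 fold change −0.55 ± 0.07 SE, limma adjusted p = 0.0186), a change of −33.6% in mean FPKM. EIF4EBP1, the better known 4E-BP, was the more abundant of the pair and had 75.1 and 83.6 FPKM in NC and 82.5 and 78.8 in SKA3-KD, with overlapping groups (log2 fold change 0.02 ± 0.07 SE, limma adjusted p = 0.853). The ratio of EIF4EBP1 to EIF4EBP2 was 4.53 and 4.94 in NC and 7.08 and 7.43 in SKA3-KD. EIF4ENIF1, the 4E-T protein that carries eIF4E into the nucleus and into repressed granules, was at 1.87 to 2.31 FPKM in all 4 libraries and overlapped. EIF4EBP3 was below the filter, at 0.161 to 0.736 FPKM on 1 to 6 reads, too few to compare.

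EIF4E, the cap-binding protein itself, had 3.95 and 3.87 FPKM in NC and 2.97 and 2.59 in SKA3-KD, on 425 to 665 reads per library. The groups did not overlap, but its log2 fold change of −0.38 ± 0.10 SE missed the threshold (limma adjusted p = 0.0648). Its low FPKM was computed over 14067 bases of exon, the whole of its annotated exon sequence, so its level cannot be read against that of a short gene. EIF4E2, a cap-binding homologue tied to repression, had 10.5 and 9.46 FPKM in NC and 9.73 and 9.66 in SKA3-KD, and EIF4E3 stayed at 0.278 to 0.357 FPKM. Neither homologue separated the groups.

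EIF4G1 (chr3:184314495-184335358, plus strand, GRCh38), which bridges eIF4E, eIF4A and eIF3, had 90.6 and 95.2 FPKM in NC and 112 and 116 in SKA3-KD. Both SKA3-KD libraries were above both NC libraries (log2 fold change 0.29 ± 0.06 SE, limma adjusted p = 0.0379). Its paralogs overlapped between the groups. EIF4G2, which lacks the eIF4E-binding site, had 138 and 130.2 FPKM in NC and 137 in each SKA3-KD library (log2 fold change 0.04 ± 0.06 SE), and EIF4G3 had 12.2 and 11.8 against 12.6 and 11.9 (0.02 ± 0.07 SE). The ratio of EIF4G1 to EIF4E was 22.9 and 24.6 in NC and 37.8 and 44.7 in SKA3-KD, and that of EIF4EBP2 to EIF4E was 4.19 and 4.37 in NC and 3.93 and 4.09 in SKA3-KD.

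Of the RNA helicase genes and their cofactors, EIF4B was lower past the threshold. EIF4B (chr12:53006158-53042209, plus strand, GRCh38) stimulates the eIF4A helicase and had 208 and 202 FPKM in NC and 159.5 and 159 in SKA3-KD. The replicates lay close together and the groups far apart (log2 fold change −0.36 ± 0.05 SE, limma adjusted p = 0.0207). EIF4H, a related cofactor of similar abundance, had 217 and 207 FPKM in NC and 216 and 217 in SKA3-KD, with no separation. The helicase EIF4A2 had 42.8 and 40.1 FPKM in NC and 48.3 and 44.9 in SKA3-KD, and EIF4A3, the helicase of the exon junction complex, 43.6 and 44.0 against 41.2 and 39.6. Both separated the groups in opposite directions, but neither passed the test (limma adjusted p = 0.173 and 0.239).

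EIF4A1, the canonical helicase of the family, was listed at only 1.05 and 1.25 FPKM in NC and 0.869 and 0.75 in SKA3-KD, and its mean fell just below the filter. These values stand on 47 to 67 reads, and 48.6% of its exon bases are shared with other genes annotated on the same strand. How the counting treated fragments in shared exons is not given in the sources used here, and the part of this overlap in the low level was not tested. For these reasons its level is not read against that of EIF4A2.

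**Figure D2:**
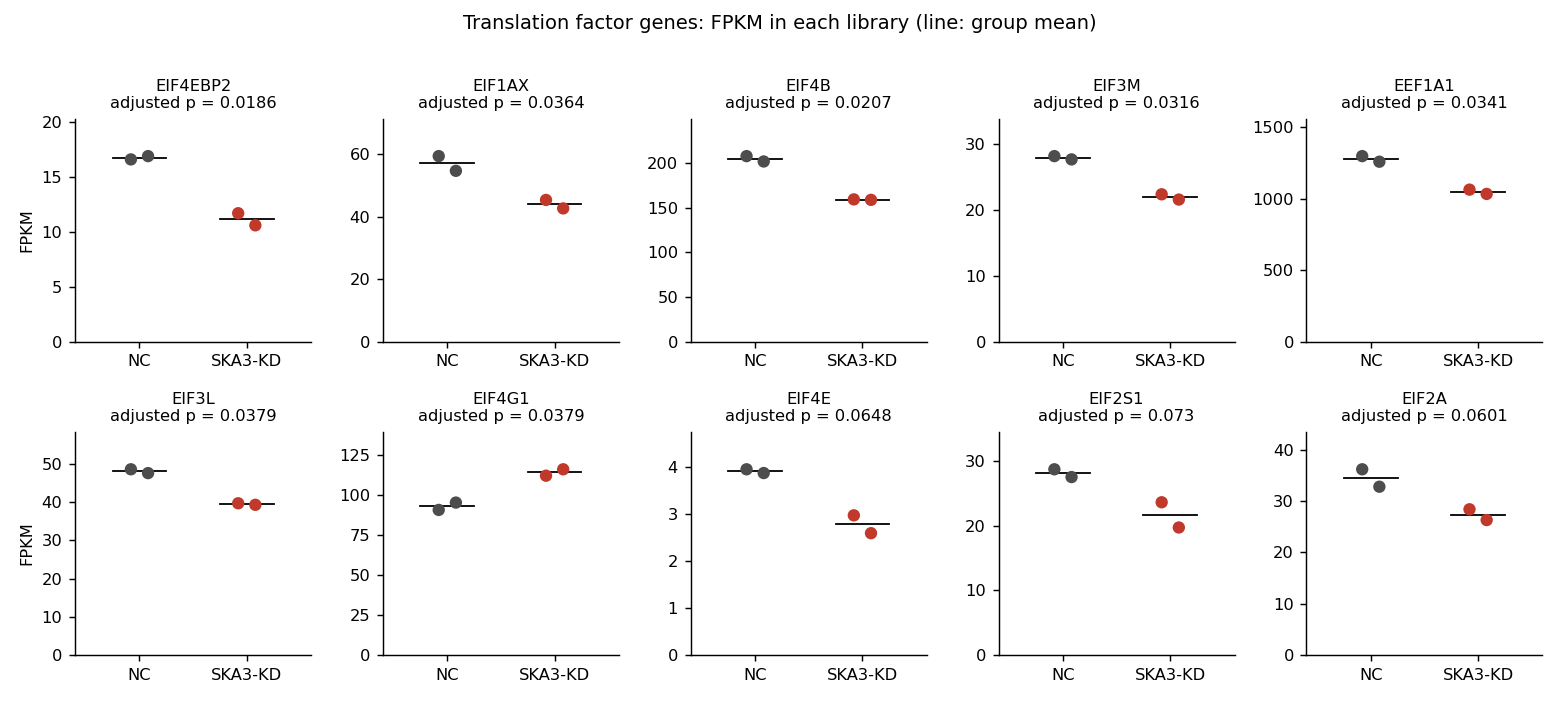
FPKM in each library, with the group mean as a line and axes from 0, for the 7 members past an adjusted p of 0.05 and for EIF4E, EIF2S1 and EIF2A, the others without overlap and with an absolute log2 fold change of at least 0.3. The SKA3-KD libraries lie lower in 9 panels and higher in EIF4G1. The genes were picked for passing the test or for not overlapping, so the separation in all 10 panels follows from that choice. Among all genes tested, 29.2% separate as lower and 32.3% as higher.

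The next 7 genes were grouped as factors of preinitiation complex assembly and start codon selection, a group that also took in EIF5B, EIF6 and EIF1AD. Of these 7, 1 was lower past the threshold, where 6.11% of all genes tested were. EIF1AX, which encodes the eIF1A that promotes scanning (chrX:20124518-20141844, minus strand, GRCh38), had 59.3 and 54.6 FPKM in NC and 45.3 and 42.6 in SKA3-KD. The lower NC library was still above both SKA3-KD libraries (log2 fold change −0.37 ± 0.07 SE, limma adjusted p = 0.0364). EIF1, its partner in start codon fidelity and the most abundant gene of this role, had 80.8 and 77.1 FPKM in NC and 89.5 and 87.6 in SKA3-KD, which did not overlap but missed the threshold (0.16 ± 0.06 SE, limma adjusted p = 0.123). EIF5B, the GTPase of subunit joining, had 55.0 and 49.9 against 59.0 and 56.1 FPKM, and EIF6, which keeps the subunits apart, 48.4 and 51.9 against 55.2 and 53.2. EIF5, the GTPase activator of eIF2, was at 32.3 to 34.6 FPKM, EIF1B had a log2 fold change of −0.05 ± 0.10 SE and EIF1AD of 0.02 ± 0.06 SE, all with overlap between the groups.

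The subunits of eIF2 had values on both sides of zero, and none of the 5 genes tested in this role passed (2 lower at an unadjusted p under 0.05, and 2 lower by limma voom, EIF2S1 and EIF2A). EIF2S1, the alpha subunit that stress kinases phosphorylate, had 28.7 and 27.5 FPKM in NC and 23.6 and 19.7 in SKA3-KD. The SKA3-KD libraries were both lower but also wide apart, and the difference missed the threshold (log2 fold change −0.37 ± 0.10 SE, limma adjusted p = 0.073). EIF2S2, the beta subunit, lay on the other side, with 97.5 and 90.9 FPKM in NC and 111 and 101 in SKA3-KD (0.16 ± 0.07 SE, limma adjusted p = 0.2). EIF2S3, the gamma subunit that binds GTP and initiator tRNA and the most abundant of the role, had 231 and 209.9 FPKM against 231 and 225, with overlap. The ratio of EIF2S1 to EIF2S2 was 0.294 and 0.302 in NC and 0.213 and 0.196 in SKA3-KD. EIF2A, a separate protein that can deliver initiator tRNA without eIF2, had 36.2 and 32.8 FPKM in NC and 28.4 and 26.3 in SKA3-KD (−0.32 ± 0.08 SE, limma adjusted p = 0.0601). EIF2D, another alternative tRNA carrier, had 15.3 FPKM in each NC library and 14.3 and 15.1 in SKA3-KD, and EIF2S3B, a retrocopy-like relative of EIF2S3, was below the filter on 8 to 30 reads.

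None of the 5 subunits of eIF2B, the exchange factor that reloads eIF2 with GTP, passed the test in limma or limma voom, and EIF2B2 alone had an unadjusted p under 0.05. EIF2B2 (beta) had 8.49 and 8.94 FPKM in NC and 10.4 and 9.72 in SKA3-KD (log2 fold change 0.19 ± 0.07 SE, limma adjusted p = 0.152). EIF2B1 (alpha), the most abundant, had 24.3 and 24.5 FPKM against 24.9 and 25.6, and EIF2B3 (gamma) had a mean 11.8% above that of NC (0.15 ± 0.06 SE, limma adjusted p = 0.177). EIF2B4 (delta), at 4.49 to 5.73 FPKM, and EIF2B5 (epsilon, the catalytic subunit), at 6.66 to 7.79, overlapped between the groups. The median log2 fold change of the 5 was 0.1, with EIF2B4 below zero and the other 4 above it. Of all 12645 genes tested, 6520 were above zero.

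The eIF3 complex, the largest initiation factor, holds messenger RNA and the preinitiation complex together. Of its 14 genes, 2 were lower past the threshold, where 6.11% of all genes tested were. EIF3M (chr11:32583798-32606262, plus strand, GRCh38) had 28.2 and 27.7 FPKM in NC and 22.4 and 21.6 in SKA3-KD (log2 fold change −0.33 ± 0.06 SE, limma adjusted p = 0.0316). EIF3L (chr22:37848868-37889407, plus strand, GRCh38) had 48.6 and 47.6 FPKM in NC and 39.7 and 39.3 in SKA3-KD (−0.28 ± 0.05 SE, limma adjusted p = 0.0379). In both genes the replicates lay close and the groups did not overlap. For EIF3L, 51.8% of the exon bases are shared with other annotated genes, 41.1% on the same strand, and for EIF3M 10.0% on the opposite strand.

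EIF3L and EIF3M both belong to the octamer of PCI and MPN subunits that forms the body of eIF3. In the octamer EIF3E was next, with 68.3 and 65.3 FPKM in NC and 59.7 and 57.6 in SKA3-KD, which separated the groups but missed the threshold (log2 fold change −0.18 ± 0.06 SE, limma adjusted p = 0.104). EIF3K, a direct neighbour of EIF3L in the complex, had 52.2 and 51.9 FPKM against 53.2 and 49.7, so the ratio of EIF3L to EIF3K was 0.932 and 0.919 in NC and 0.746 and 0.79 in SKA3-KD. EIF3A, the scaffold subunit, was nearly level at 78.3 and 78.8 FPKM against 80.4 and 80.2. EIF3F, at 17.2 to 19.7 FPKM, and EIF3H, at 37.0 to 40.5, overlapped between the groups. Of the 8 octamer genes, 6 had log2 fold changes below zero, EIF3A and EIF3C had values above it, and the median was −0.03.

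The 5 subunits outside the octamer all had log2 fold changes above zero, from 0.03 to 0.19, and none passed the test, while EIF3B had an unadjusted p under 0.05 and was called higher by limma voom. EIF3B, which anchors the peripheral module, had 60.0 and 60.6 FPKM in NC and 68.3 and 69.9 in SKA3-KD (log2 fold change 0.19 ± 0.05 SE, limma adjusted p = 0.0775). EIF3I, its partner and the most abundant eIF3 gene, had 129 and 121 FPKM against 139 and 130. The groups nearly touched in EIF3I and stood clear of each other in EIF3B. EIF3D, which can bind the cap itself, had 39.4 and 39.6 FPKM in NC and 41.4 and 41.3 in SKA3-KD, and EIF3G and EIF3J overlapped. EIF3C and EIF3CL are near-identical copies on chromosome 16 whose reads cannot be assigned with certainty, and were at 4.78 to 5.64 FPKM and 2.33 to 3.45 FPKM. The difference between the octamer and the other subunits was not tested. Among all 12645 genes tested, 6520 had values above zero and 6125 below. In the octamer EIF3A (0.03 ± 0.05 SE), EIF3F (−0.01 ± 0.08 SE), EIF3H (−0.05 ± 0.06 SE) and EIF3K (−0.02 ± 0.06 SE) lay within 1 standard error of zero. Outside it EIF3G (0.03 ± 0.07 SE) and EIF3J (0.06 ± 0.08 SE) did so too.

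**Figure D3:**
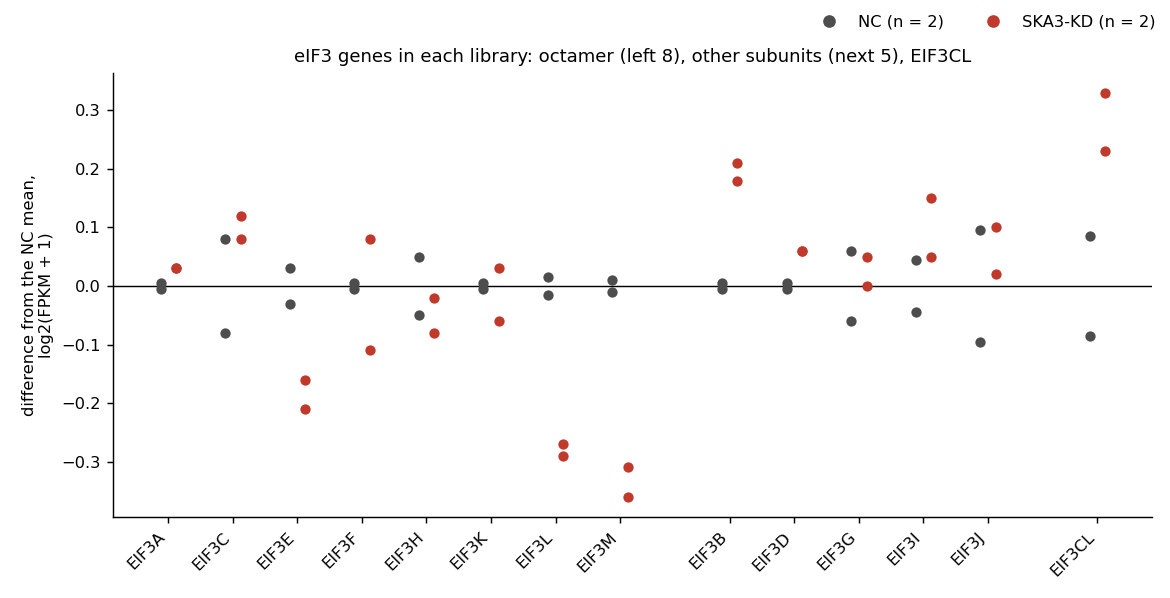
Difference of each library from the NC mean on log2(FPKM + 1) for the 14 eIF3 genes, with the 8 octamer subunits first, then the other 5, then EIF3CL. The SKA3-KD libraries of EIF3E, EIF3L and EIF3M lie below both NC libraries, those of EIF3A, EIF3B, EIF3C, EIF3D, EIF3I and EIF3CL above them, and the other 5 genes overlap. Among all genes tested, 29.2% lie below in this way and 32.3% above.

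The elongation factors include the most abundant transcripts of the family. EEF1A1 (chr6:73515750-73523797, minus strand, GRCh38), which encodes the main eEF1A, had 1296 and 1257 FPKM in NC and 1062 and 1032 in SKA3-KD. This was the largest drop in absolute level among the members, with groups far apart (log2 fold change −0.29 ± 0.05 SE, limma adjusted p = 0.0341), although under quantile normalization it missed the threshold (adjusted p = 0.0608). EEF1A2, the paralog that is normally prominent in neurons and muscle, was also abundant, with 502 and 582 FPKM in NC and 578 and 631 in SKA3-KD. Those groups overlapped by a narrow margin (0.16 ± 0.09 SE, limma adjusted p = 0.302). The ratio of EEF1A2 to EEF1A1 was 0.387 and 0.463 in NC and 0.544 and 0.611 in SKA3-KD. EEF2, the translocase, had 942 and 1018 FPKM in NC and 976 and 1047 in SKA3-KD, with overlap (0.05 ± 0.07 SE).

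The subunits of the eEF1B exchange factor did not pass the test. EEF1B2 had 173 and 148 FPKM in NC and 151 and 139 in SKA3-KD, EEF1D 18.3 and 20.1 against 19.2 and 19.6, and EEF1E1, an associated protein of the tRNA synthetase complex, 5.2 and 4.42 against 4.85 and 3.34. All 3 overlapped between the groups. EIF5A, the hypusinated factor, had 298 and 287 FPKM in NC and 344 and 338 in SKA3-KD, clearly separated but just short of the threshold (log2 fold change 0.22 ± 0.05 SE, limma adjusted p = 0.0576). Its relatives EIF5A2 (0.837 and 0.952 against 1.21 and 1.21 FPKM) and EIF5AL1 (0.894 and 0.839 against 1.13 and 1.15) had values in the same direction on 29 to 80 reads per library, and neither passed the test. EIF5A had 7275 to 11180 reads, and how reads were split between it and these relatives is not given in the sources used here.

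The ratios given between members all separated the groups. Each holds a member past the threshold or EIF2S1, whose groups did not overlap, so the separation follows in part from that choice. With 2 libraries against 2 an exact permutation test cannot go below p = 0.333. Each of the 6 ratios gave that value in a two-sided test, which therefore decides nothing.

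**Figure D4:**
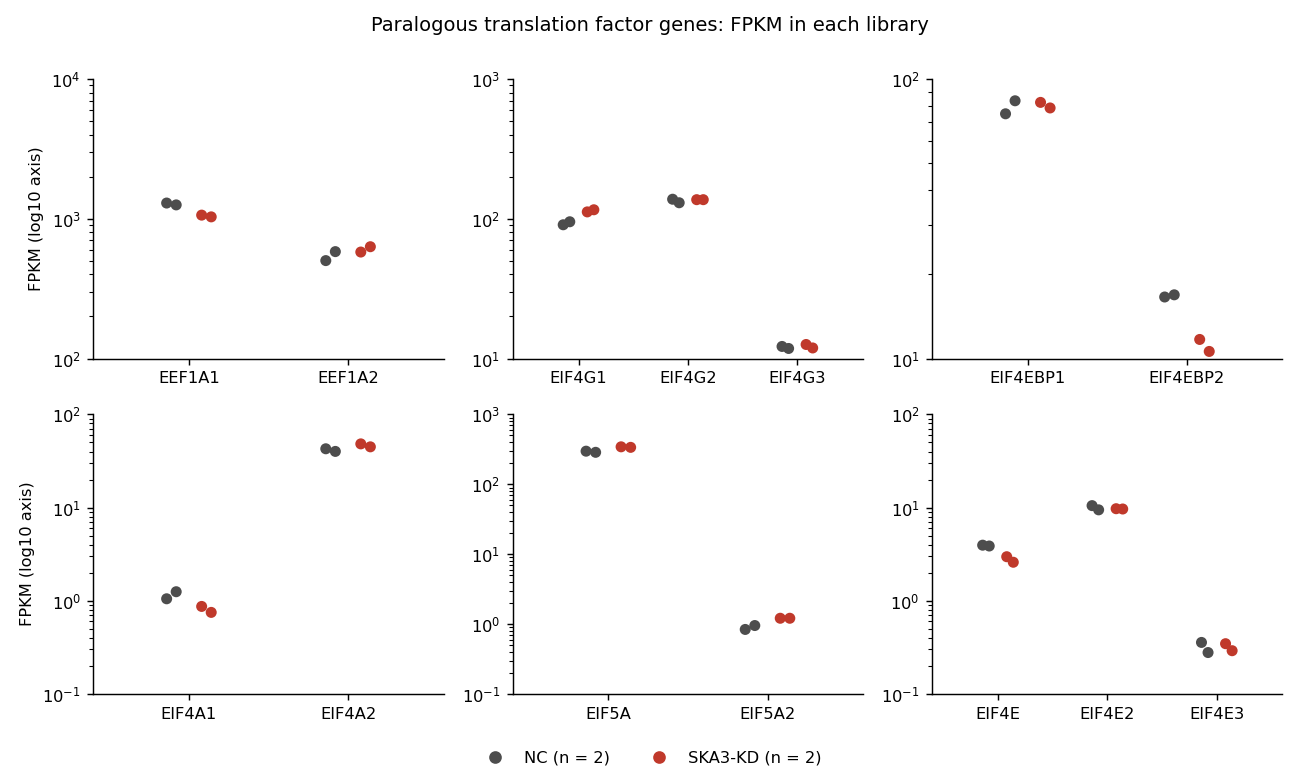
FPKM of paralogous translation factor genes in each library on a log10 axis, with NC in grey and SKA3-KD in red. EEF1A1, EIF4EBP2 and EIF4G1 separate the groups past the threshold, while EEF1A2, EIF4EBP1, EIF4G2 and EIF4G3 overlap. The points of EIF4A1 rest on 47 to 67 reads in partly shared exons, so their height is not comparable with that of EIF4A2.

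Transcript starts were then compared, because TOP messenger RNAs are defined by their first bases. A start was counted when the first transcribed base in RefSeq was C and the next 4 bases were each C or T, read on the transcribed strand only. Of the 46 members with a promoter entry, 13 had such a start, or 28.3%, against 5.1% of all symbols with an entry and 67.7% of 65 ribosomal protein symbols. The windows below run from 10 bases before the start to 20 from it, in the GRCh38.p14 build, with capitals for the C and its pyrimidine run. They show the 3 lower genes with such a start, then EIF2A, EEF2, EIF4A2 and EIF3K, which share it and did not pass the test, and last EIF4EBP2 and EIF1AX, which were lower without it.

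EEF1A1 (chr6:73521013-73521042, minus strand): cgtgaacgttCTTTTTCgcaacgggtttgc
EIF4B (chr12:53006446-53006475, plus strand): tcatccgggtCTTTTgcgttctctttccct
EIF3M (chr11:32583821-32583850, plus strand): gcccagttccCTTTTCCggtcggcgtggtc
EIF2A (chr3:150546777-150546806, plus strand): cgagcggtttCTCTTTCCgggacaacatgg
EEF2 (chr19:3985444-3985473, minus strand): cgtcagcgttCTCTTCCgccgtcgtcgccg
EIF4A2 (chr3:186783567-186783596, plus strand): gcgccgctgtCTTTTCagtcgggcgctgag
EIF3K (chr19:38619178-38619207, plus strand): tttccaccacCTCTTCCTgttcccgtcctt
EIF4EBP2 (chr10:70404135-70404164, plus strand): gccttcgcccgcttccggtcgtcgtcgtcg
EIF1AX (chrX:20141819-20141848, minus strand): gagtcgcggcgccatttgctgccgccgagc

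Of the 12 tested members with a pyrimidine start, 3 were lower (EEF1A1, EIF4B and EIF3M) and 0 higher (limma; 4 and 0 both at an unadjusted p under 0.05 and by limma voom). The median over these genes was −0.04 on the log2 scale, with 8 of the 12 below zero, and EIF2A at −0.32 was the lowest of those not called. EEF2, EIF2S3, EIF3D and EIF4A2 had values above zero, EIF4A2 the highest at 0.17. Of the 30 tested members with another start, 2 were lower (EIF4EBP2 and EIF1AX) and 1 higher (EIF4G1), with a median of 0.05 (4 and 5 at an unadjusted p under 0.05, and 4 and 3 by limma voom). EIF3L, the remaining lower gene, has no promoter entry. Among all 12645 genes tested, 1912 were lower and 2046 higher at an unadjusted p under 0.05, and 6125 had values below zero. By limma voom 12.3% of all genes were lower and 13.8% higher. Over all genes tested, 8.1% of the 654 with a pyrimidine start were lower and 4.13% higher (7.18% and 4.51% of the 599 that are neither members nor ribosomal protein genes), against 6.29% and 6.73% of the 7954 with another start, and the medians were −0.02 and 0.02. These are counts beside each other, without a test of the difference, and a match in these letters does not show that a transcript in TU-177 cells starts there.

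**Figure D5:**
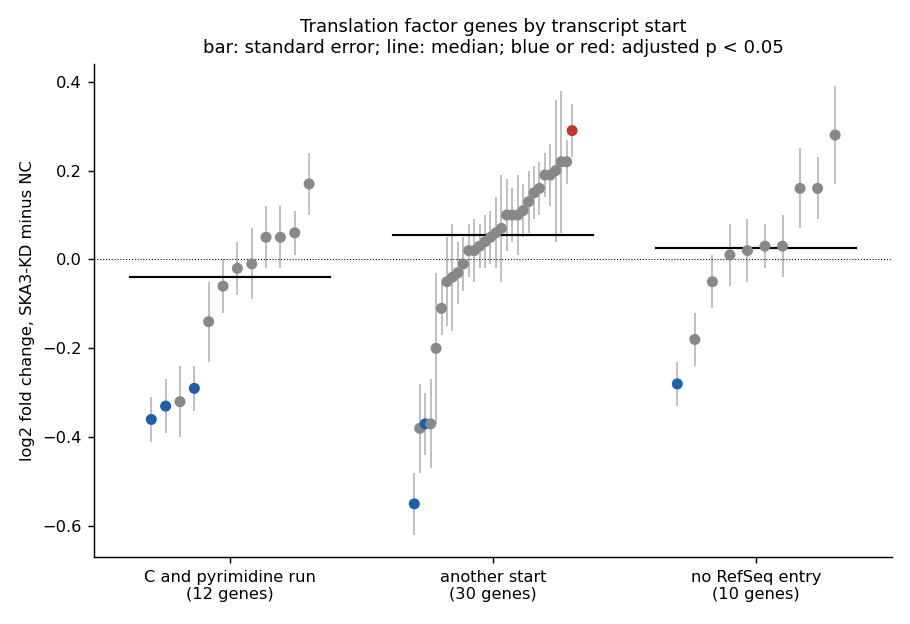
Log2 fold change of the tested members by kind of RefSeq transcript start, with bars for the standard error and a line for the median. The 12 genes that start with C and a pyrimidine run have a median of −0.04, the 30 with another start 0.05, and both kinds span values below and above zero.

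Among the genes that act with these factors, PAIP1, PABPC4, MTOR and PPP1R15B were higher and HNRNPA1 was lower past the threshold. PAIP1, which binds poly(A)-binding protein and eIF4A and stimulates initiation, had 53.5 and 53.0 FPKM in NC and 94.9 and 95.7 in SKA3-KD. This was the largest shift in size among the translation genes listed here (log2 fold change 0.83 ± 0.05 SE, limma adjusted p = 0.00709). PABPC4, a cytoplasmic poly(A)-binding protein, had 30.2 and 30.5 FPKM against 39.0 and 37.8 (0.33 ± 0.06 SE, limma adjusted p = 0.0292), and PABPC1 had 355 and 360 against 393 and 391 without passing. Of 5 poly(A)-binding proteins and partners tested, PAIP1 and PABPC4 were higher in limma and in limma voom and 0 were lower in either (3 and 0 at an unadjusted p under 0.05). Among all genes tested 6.16% were higher in limma and 13.8% in limma voom.

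MTOR, the kinase that phosphorylates the 4E-BPs, had 9.7 and 10.5 FPKM in NC and 15.7 and 16.4 in SKA3-KD (log2 fold change 0.62 ± 0.07 SE, limma adjusted p = 0.0146). It was the 1 higher of 11 tested genes from mTOR to translation, of which 9 had values above zero and 0 were lower. At an unadjusted p under 0.05, 3 were higher and 1 lower, and limma voom called MTOR, TSC2 and AKT1 higher and AKT2 lower. Among all genes tested 6.16% were higher and 6.11% lower in limma, and 6520 of 12645 had values above zero. LARP1, the TOP-binding repressor, had 50.6 and 54.8 FPKM against 48.7 and 49.1 (−0.11 ± 0.06 SE, limma adjusted p = 0.319). PPP1R15B, the constitutive subunit of the phosphatase that restores eIF2 alpha, had 39.7 in each NC library and 49.7 and 48.9 FPKM in SKA3-KD (0.31 ± 0.05 SE, limma adjusted p = 0.0313), the 1 call among 21 enzymes that modify the factors. The 4 eIF2 alpha kinases and the eEF2 kinase were in that list and none passed, although limma voom called EIF2AK3 and EEF2K lower and EIF2AK4 higher.

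None of the 5 tested termination and recycling genes passed in limma, with 1 lower and 1 higher at an unadjusted p under 0.05 and by limma voom (MCTS1 and GSPT1). Among textbook TOP transcripts outside the family, HNRNPA1 was lower, with 381 and 355 FPKM in NC and 266 and 250 in SKA3-KD (log2 fold change −0.51 ± 0.06 SE, limma adjusted p = 0.0174), and it was the 1 call of 5 tested. TPT1 had 130.1 and 118 FPKM in NC and 104 and 97.9 in SKA3-KD (−0.29 ± 0.07 SE, limma adjusted p = 0.0618) and was called lower, with HNRNPA1, by limma voom. The rest of this list passed in neither. PABPC1 lay above zero (0.13 ± 0.05 SE), and RACK1 (−0.05 ± 0.05 SE) and NAP1L1 (−0.09 ± 0.07 SE) lay below it. Of the 8 tested members on the same textbook list, 2 were lower (EEF1A1 and EIF4B), 0 higher and 6 had values below zero, with a median of −0.1. Among all genes tested 6.11% were lower and 6.16% higher, and 6125 of 12645 had values below zero. Leaving out 1 library ended the calls of PABPC4, MTOR, PPP1R15B and HNRNPA1 whichever it was, and that of PAIP1 unless it was SKA3-KD 2. In bulk RNA, a lower level per cell and fewer cells with the transcript cannot be told apart.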

How the data were processed

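Total RNA of 2 NC and 2 SKA3-KD samples, isolated with Trizol, was read on an Illumina sequencer. The authors deposited a table of FPKM values per gene and library, normalized for exon length and library size. The submitters' processing notes name hg19, Bowtie2 2.2.8, HISAT2, StringTie 1.3.1 and Cuffdiff 2.1.1 without their roles, and the strand setting is not given in the sources used here. Symbols and positions were taken by Ensembl identifier from GENCODE 29 (GRCh38).

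SKA3-KD was compared with NC by limma 3.58.1 (R 4.3.3; lmFit and eBayes with a trend) on log2(FPKM + 1), for genes whose FPKM averaged at least 1, without further scaling. Fold changes on this scale understate low genes. P-values were two-sided and adjusted by Benjamini-Hochberg over 12645 genes, with a threshold of 0.05. Whole reads, within 0.01 reads, were recovered from the FPKM steps for 96.7% of the genes tested (61.3% with the GENCODE 29 exon length and 35.4% with another length that gave whole numbers), and 12229 genes entered limma voom. The recovered reads summed to 109.2% to 110.9% of the library sizes. Tested members had 29 to 92178 reads per library, and 32 of the 52 had at least 1000 in every library. These depths limit counting error only. Replicates differed by more than counting noise (chi-square per degree of freedom 4.2 in NC and 4.06 in SKA3-KD).

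Members and lists were chosen with earlier results of these data known. Values per library are given for members past the threshold, for the most abundant gene of each role, for members without overlap and with an absolute log2 fold change of at least 0.3, and for paralogs; other members named were chosen after their values were seen. Transcript starts came from RefSeq promoters (GRCh38.p14), with 250 bases before the start and 50 from it. Alternatives were quantile normalization, median-of-ratios scaling, a smaller pseudocount (0.1), an FPKM filter at 5 or none, no trend, the replicate number as a block, voom, an adjusted p under 0.1, and each library left out. The test was also run on simulated data, whose outcome is not reported here and is not used to vouch for the calls. No set test was run.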

Additional observations from a re-analysis of the deposited data

How the results depend on the processing

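With all libraries, no result reversed, and the median log2 fold change of the members stayed between 0.015 and 0.032 in every alternative. Of 6 members lower and 1 higher, without a filter on FPKM 0 and 0 passed (9 and 6 at an unadjusted p under 0.05), without a mean-variance trend 1 and 0, with limma voom on recovered reads 10 and 3. Members higher numbered 2 with a mean FPKM of at least 5, 2 under quantile normalization, and 3 at an adjusted p under 0.1. Over all genes, 772 lower and 779 higher became 81 and 48 without a filter, 381 and 312 without a trend, 1509 and 1683 with voom, and 1356 and 1442 at an adjusted p under 0.1. With no filter 26504 genes were tested. Leaving out each library in turn, which leaves 1 sample in an arm that is assumed to vary like the other group, gave 0 to 0 members lower (6 to 11 unadjusted), 0 to 0 higher (1 to 6 unadjusted), 0 to 135 genes lower and 0 to 46 higher. Without NC 1 or NC 2, 0 genes were called in either direction by limma. The replicate number as a block gave 8 members lower and 3 higher, and 965 and 1002 genes over all; the labels say nothing of a shared day or batch, and deviations of same-numbered libraries correlated at 0.1, so the numbers are not taken to pair the libraries. For the 7 called members and SKA3, 58 of 72 single values under alternatives with all libraries kept their side of the threshold and 14 lost it, and 2 of 32 with a library left out kept it. The 58 that kept it include those at the looser threshold of 0.1, under which a call made at 0.05 could not be lost. Scaling moved the median of all genes by little (log2 size factors from −0.01 to 0.01). With 2 libraries per group, differences of up to 0.38 in size on the log2 scale missed the threshold (EIF4E at −0.38, EIF2S1 at −0.37, EIF2A at −0.32).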

Other observations

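Of the 56 genes, 19 have pseudogenes in the table, 49 in all, and how reads were split between these and the parent gene is not given in the sources used here. The 15 EEF1A1 pseudogenes held 2.56% and 1.95% as many reads as EEF1A1 in NC and 2.49% and 2.61% in SKA3-KD, with overlap, and EEF1A1P5 was the highest, at 98.4 and 73.1 FPKM in NC and 79.1 and 79.2 in SKA3-KD. The 3 EIF4B pseudogenes held 1.11% and 0.9% in NC and 1.0% in each SKA3-KD library. The antisense gene that shares 11.9% of the EIF4B exon bases had 1.558 and 1.467 FPKM in NC and 1.221 and 0.918 in SKA3-KD. The 2 EIF4A1 pseudogenes held 25.4% and 10.0% as many reads as EIF4A1 in NC and 38.3% and 40.4% in SKA3-KD, on 6 to 19 reads per library. For EIF4A1 the largest exon overlap, 41.1%, is with AC016876.2, which stayed at or below 0.024 FPKM.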
